A study of Homo sapiens with 7 samples.

Results

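Coding sequence peaks in exons under 400 nt are places where RNA was enriched by an antibody to N6-methyladenosine (m6A). They lie inside the protein-coding part of a messenger RNA, in exons of ordinary length. They come from an m6A map of cells that bear the label HepG2, the name of a human liver carcinoma line, and that had received no treatment. A peak was kept where the authors' segment was coding sequence and the exon that held it was under 400 nt long. This left 390 peaks of the 12769 listed, in 373 transcripts of 373 genes, which is 8.58% of all 4547 coding sequence peaks. In the table the coding sequence segment begins 200 nt into the transcript, and it stops 200 nt short of the stop codon, where other segments take over. The rule used segment and exon length, and it did not use the score, the expression, the sequence or the place of a peak within its exon.

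The series held 4 libraries immunoprecipitated with an anti-m6A antibody and 3 inputs, all from untreated cells of 1 line grown in the same medium. Polyadenylated RNA had been fragmented to about 100 nt. The deposited table gives 1 set of peaks for the 7 libraries together, so depth and replicate error are unknown, and intervals and p-values below cover only the counting of peaks or transcripts in this table. Of 10 liver markers, 6 (ALB, AFP, TTR, SERPINA1, APOB and AHSG) were tied at the lowest expression quantile, 0.314, and the highest of the 10 was FGB at 0.619. HNF4A stood at 0.509. Among 6 markers of other epithelia KRT7 stood at 0.998, MSLN at 0.968, MUC16 at 0.667, EPCAM at 0.498, PAX8 at 0.496 and WT1 at 0.333, so the 2 sets overlapped. The low level of ALB, AFP and APOB goes against the label, and the cells are called by their label only.

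The methyl group is written on nascent transcripts by a complex built around METTL3 and METTL14, mostly within the consensus RRACH, in which R is A or G and H is A, C or U. It is read by YTH domain proteins and others that alter splicing, translation and decay. In mammalian messenger RNA the mark is known for its concentration in long internal exons and around the stop codon. Exon junction complexes, which are left on the RNA just upstream of splice junctions, have been reported to keep short coding exons free of it.

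The sequences below come from the 12 highest-scoring of these peaks that could be placed on a GENCODE transcript, that had RRACH within 50 nt, and whose sequence window lay inside the coding part of the exon. They are shown as examples of the sequence near such peaks. OGDH, RAPGEF6 and LNX2, among the highest scores of all, were not placed on sequence. Each is 21 nt of the RNA strand in DNA letters, 5' to 3', with the pentamer in capitals. The pentamer is GGACU, with T for U here, where that lay within 50 nt of the listed position, and otherwise the nearest RRACH, so the choice of windows fixes the form shown. Another RRACH lay nearer than GGACU in PPP2R5A, VASH2, ORC1L, EPC1 and DSTYK. Within the same range of scores CAPG was left out because its window was not wholly inside the exon with the peak, and CDC123 and APC2 because their nearest RRACH lay 111 and 144 nt away.
PPP2R5A: gatttcatGGACTctgtttca
PILRA: gttgagctGGACAcacggagc
UTX: tggccaatGGACCcttttctg
PZP: cgtgctgtGGACCaaagtgtg
VASH2: gacttttcGGACTctgagtga
UAP1: atgacctcAAACTcacgttgt
ACBD3: ttttgaatGGACAgactctcc
DHX32: tgttacttGGACTtcttaaag
ORC1L: gagagactGGACTctcttata
EPC1: tatacctaGGACTttaagtgc
DSTYK: cacctatgGGACTcagactcg
VPS13C: cagggcaaAAACTggaatgga

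In GRCh38 the PPP2R5A window is chr1:212329200-212329220 on the plus strand, in exon 2 of 13. The PILRA window is chr7:100374358-100374378 on the plus strand, in exon 2 of 7. The UTX window is chrX:45063594-45063614 on the plus strand, in exon 16 of 29, and the PZP window is chr12:9181022-9181042 on the minus strand, in exon 15 of 36. The methylatable A lay 29 nt upstream of the listed position in PPP2R5A (distance -29), 12 nt downstream in PILRA, 2 nt upstream in UTX (distance -2) and 26 nt downstream in PZP. All 4 exons are internal and coding.

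Exons under 400 nt make up most of the coding sequence but hold few of its peaks. In GENCODE, with the longest complete coding transcript of each of 19528 genes, 172517 of 195670 coding exons (88.2%) were under 400 nt and carried 64.1% of coding nucleotides, beside 8.58% of the coding sequence peaks listed here. The exons that did hold such a peak were long for their class, with a median of 286.5 nt (quartiles 216 and 342 nt). Exons of 300 to under 400 nt held 180 of the 390 peaks, exons of 200 to under 300 nt 134, exons of 100 to under 200 nt 62 and exons under 100 nt 14.

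Density was followed along exon length in 1139 transcripts that had a peak of any kind and matched GENCODE. These carried 90 of the 390 peaks. The 90 had a median score of 2.86 (2.66 to 3.00), beside 2.73 for all 390, and a median expression quantile of 0.802, beside 0.829. Exons under 100 nt held 0.18 peaks per 10000 eligible coding nt (exact Poisson interval 0.049 to 0.46, 4 peaks), and exons of 100 to under 200 nt also 0.18 (0.099 to 0.29, 15 peaks). The value was 0.69 at 200 to under 250 nt (0.37 to 1.18, 13 peaks) and 1.24 at 250 to under 300 nt (0.59 to 2.28, 10 peaks). It was 6.22 at 300 to under 350 nt (3.98 to 9.25, 24 peaks), 8.34 at 350 to under 400 nt (5.34 to 12.4, 24 peaks) and 11.5 at 400 to under 500 nt (8.83 to 14.6, 64 peaks). Density therefore stood highest in the longest of these exons, and the intervals on either side of 300 nt did not overlap. RRACH was as frequent in the shorter exons, at 1.54 sites per 100 nt in exons of 100 to under 200 nt and 1.45 in exons of 300 to under 400 nt. Its form GGACU was rarer there, at 1.08 sites per 1000 nt in exons of 100 to under 200 nt. It stood at 1.02 in exons of 200 to under 300 nt and 1.31 in exons of 300 to under 400 nt. Whether motif frequency bears on peak density was not tested. The limit of 400 nt marked no step. The 19 peaks in exons of 390 to under 400 nt had a median score of 3.05, and the 19 peaks in exons of 400 to under 410 nt, among them one of METTL3, the catalytic subunit of the writer, in an exon of 405 nt (score 3.01), had a median of 2.94.

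**Figure D1:**
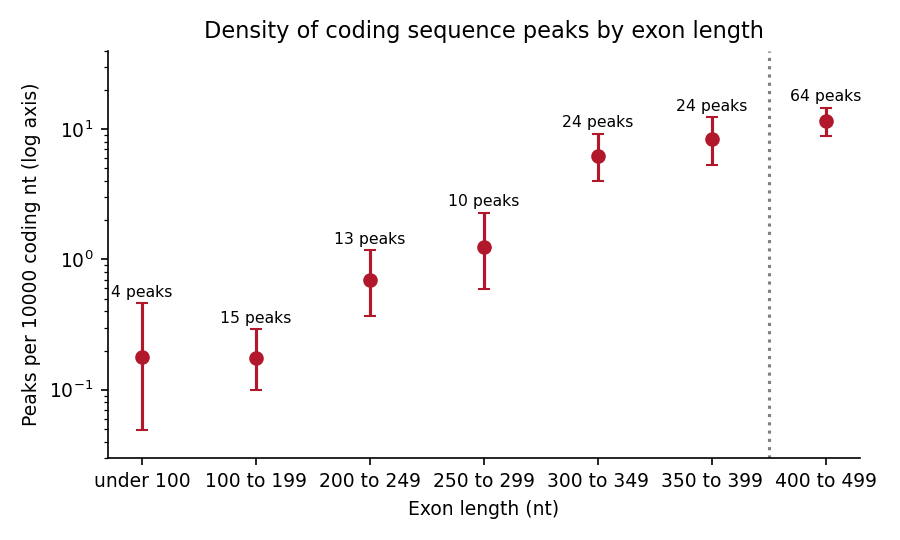
Peaks per 10000 eligible coding nucleotides (log axis) by length of the exon in nt, in 1139 matched transcripts with a peak. Points are densities, bars are exact 95% Poisson intervals, numbers are peaks, and the dotted line marks 400 nt. Density stood at 0.18 in exons of 100 to under 200 nt and at 8.34 in exons of 350 to under 400 nt.

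Scores in short coding exons were low. The authors' peak score has no stated scale and was used as a rank, with the median of all 12769 peaks, 3.15, as the dividing line. Of the 390 peaks, 116 (29.7%, 95% Wilson interval 25.4 to 34.5%) scored above that line, against a background of 50% over all peaks. The share was 54.4% of 2070 coding sequence peaks in exons of 400 to under 1500 nt and 49.1% of 2087 in exons of 1500 nt and over. Both differences were larger than the counting error, at -24.7 percentage points (odds ratio 0.36, interval 0.28 to 0.45, two-sided Fisher's exact test, adjusted p = 9.15e-19 over 4 comparisons) and -19.3 points (odds ratio 0.44, interval 0.34 to 0.56, Fisher's exact adjusted p = 2.83e-12). Peaks of a gene share their transcript and are not independent. With 1 peak per gene in each exon class the differences were -25.8 and -22.45 points. A gene with peaks in both classes still entered both sides.

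Medians gave the same order. The median score was 2.73 (exact interval 2.64 to 2.83) in exons under 400 nt, 3.25 (3.19 to 3.33) in exons of 400 to under 1500 nt, 3.12 (3.07 to 3.18) in exons of 1500 nt and over, and 3.45 (3.39 to 3.50) around the stop codon. A score under 2.5, close to the lowest score listed, was given to 35.9% of the short-exon peaks (31.3 to 40.8%), 21.7% of those in exons of 400 to under 1500 nt and 23.4% of those in the longest exons. Within the class the score was higher in the longer exons. Its median was 2.35 under 100 nt (2.03 to 2.86) and 2.49 at 100 to under 200 nt (2.30 to 2.73). It was 2.64 at 200 to under 300 nt (2.52 to 2.82) and 2.94 at 300 to under 400 nt (2.78 to 3.04). The authors' expression quantile of the transcripts also differed, with medians of 0.929, 0.843, 0.852 and 0.805 in the same order. Whether the score follows exon length or expression was not tested.

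**Figure D2:**
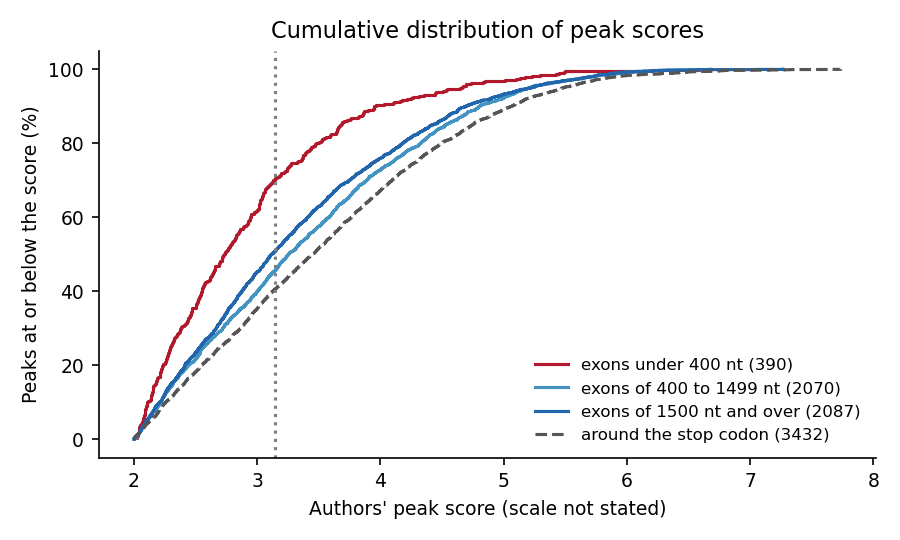
Cumulative share of peaks (percent) at or below each value of the authors' peak score, for 390 coding sequence peaks in exons under 400 nt, 2070 in exons of 400 to under 1500 nt, 2087 in exons of 1500 nt and over and 3432 around the stop codon. The dotted line is the median of all peaks, 3.15, and the curve of the short exons lies to the left of the other 3 there.

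Only 12 of the 390 peaks (3.08%) reached a score of 5, against 7.78% in exons of 400 to under 1500 nt and 6.76% in the longest exons. The highest was OGDH at 6.59. OGDH encodes a subunit of the 2-oxoglutarate dehydrogenase complex of the citric acid cycle, and its peak lay at position 226 of the transcript in exon 2 of 249 nt (chromosome 7, 44612696 to 44715194, plus strand, as the table gives them). RAPGEF6, a guanine nucleotide exchange factor for Rap, scored 6.19 in exon 27 of 315 nt (chromosome 5, 130789503 to 130998828, minus strand). PPP2R5A, a regulatory subunit of protein phosphatase 2A, scored 5.50 in exon 2 of 197 nt (chromosome 1, 210525502 to 210601828, plus strand). 

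LNX2, a RING-type ubiquitin ligase, scored 5.49 in an exon of 369 nt, and PILRA, an inhibitory immunoglobulin-like receptor, 5.45 in an exon of 390 nt. The cadherin CDH24 scored 5.43 (249 nt) and LRP6, a coreceptor of Wnt ligands, 5.29 (394 nt). ZC3H12B, of the CCCH zinc finger family, scored 5.23 (235 nt). UTX, now KDM6A, a demethylase of histone H3 lysine 27, scored 5.17 (396 nt), and PZP, a protease inhibitor related to alpha-2-macroglobulin, 5.13 (150 nt). The authors' expression quantile, a rank of transcripts from 0 to 1, ran from 0.495 for ZC3H12B to 0.965 for OGDH among these 10.

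For 4 of these 10 (PPP2R5A, PILRA, ZC3H12B and PZP) it was the only peak of the transcript. In RAPGEF6 and UTX a strong peak stood in the adjoining exon, with 5.76 in exon 26 of RAPGEF6 (491 nt) and 5.98 in exon 17 of UTX (779 nt), which follows the short exon 16. LNX2 had another of 5.67 in exon 2 (507 nt), farther from its short exon 5. In OGDH and CDH24 the short-exon peak stood above the other one, which scored 2.52 in the 3' UTR of OGDH and 2.93 around the stop codon of CDH24.

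The 14 peaks in exons under 100 nt, shorter than the RNA fragments, were led by CAPZA1, an actin capping protein (3.37, exon 2 of 64 nt), and TCEA2, a transcription elongation factor (3.27, exon 7 of 57 nt). FLNA, the actin crosslinker filamin A, followed (2.86, exon 4 of 98 nt), then EWSR1, an RNA-binding protein (2.71, exon 2 of 37 nt), and RDBP, a subunit of the negative elongation factor NELF (2.65, exon 2 of 83 nt). Their median score was 2.35. The expression quantile of these 14 had a median of 0.929, against 0.829 for all 390. A fragment of about 100 nt over such an exon also covers its neighbours, so which exon holds the modified base cannot be told apart here.

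Most transcripts held 1 short-exon peak (359 of 373), 12 held 2, 1 held 3 and 1 held 4. PTGFRN, a membrane immunoglobulin superfamily protein, had 3, with scores of 2.27, 4.25 and 2.07 in exons 2, 4 and 8. Of those with 2, CARD14, an NF-kB adaptor, had 2.31 and 2.09, ENTPD4, a nucleotidase of internal membranes, 3.05 and 3.70, and the laminin chain LAMB1 2.01 and 3.39.

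Within the same transcript, and so at the same expression, short-exon peaks scored below other peaks. A peak around the stop codon accompanied the short-exon peak in 119 of 373 transcripts (31.9%). The short-exon peak scored higher in 30 of these 119 (25.2%). The median score was 2.62 for the short exon and 3.63 around the stop codon, with a median difference of -0.91 (exact interval -1.17 to -0.64, exact two-sided sign test, adjusted p = 1.14e-07 over 2 comparisons). In the 98 transcripts that also had coding sequence peaks in exons of 400 nt and over, the short-exon peak was the higher in 27 (27.6%), with medians of 2.72 and 3.47 and a median difference of -0.70 (-0.98 to -0.43, exact sign test, adjusted p = 1.01e-05).

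**Figure D3:**
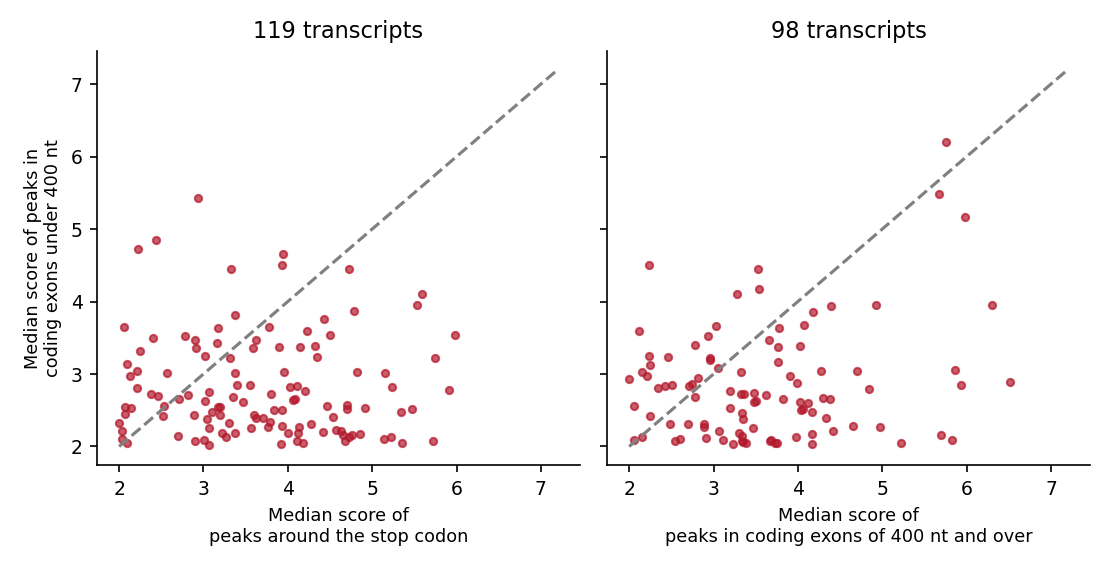
Median score of coding sequence peaks in exons under 400 nt (vertical axis) against that of peaks around the stop codon (left, 119 transcripts) or of coding sequence peaks in exons of 400 nt and over (right, 98 transcripts) of the same transcript. Each point is a transcript and the dashed line marks equal scores. Above the line lie 30 points on the left and 27 on the right.

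In 154 transcripts (41.3%) the short-exon peak was the only one listed. These peaks had a median score of 2.92 (2.69 to 3.01), beside 2.66 (2.55 to 2.76) for the 236 with other peaks in the transcript. Of the 390 peaks, 78 (20.0%, 16.3 to 24.3%) had a peak in an adjacent exon, against 465 of 4157 coding sequence peaks in longer exons (11.2%, 10.3 to 12.2%). A further peak in the same exon was listed for 2 of the 390 and for 60.9% of the 4157. The room for it differs with exon length, and these 2 differences were not tested.

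Transcripts with short-exon peaks stood higher in expression than those with peaks in longer coding exons. The median expression quantile was 0.829 (0.807 to 0.845), against 0.766 (0.758 to 0.774) for peaks in exons of 400 to under 1500 nt and 0.742 (0.733 to 0.750) for those in the longest exons. A quantile above 0.9 was found for 89 of the 390 peaks (22.8%), near the background of 23.8% over peaks of all kinds and the 24.5% around the stop codon. It was found for 15.1% of peaks in exons of 400 to under 1500 nt (difference 7.70 points, odds ratio 1.66, interval 1.26 to 2.18, Fisher's exact adjusted p = 0.00032) and 14.2% in exons of 1500 nt and over (8.64 points, odds ratio 1.79, interval 1.35 to 2.35, Fisher's exact adjusted p = 4.76e-05). The quantile is 1 value per transcript but was counted once per peak, so peaks of the same transcript are not independent. With 1 peak per gene in each exon class the differences were 8.37 and 11.0 points. Without peaks under 300 nt from the transcript start the share above 0.9 was 19.2% of 317. The difference from exons of 400 to under 1500 nt was then 4.11 points (Fisher's exact adjusted p = 0.067). The difference from exons of 1500 nt and over was then 4.97 points (Fisher's exact adjusted p = 0.027).

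The score was lower at higher expression in this class. Its median was 3.73 at quantiles of 0.4 to 0.6 (3.00 to 4.45, 29 peaks), 3.05 at 0.6 to 0.7 (2.94 to 3.32, 51 peaks), 2.75 at 0.7 to 0.8 (2.57 to 2.97, 86 peaks), 2.52 at 0.8 to 0.9 (2.46 to 2.64, 135 peaks) and 2.64 above 0.9 (2.42 to 2.80, 89 peaks). In exons of 400 nt and over the medians at the same quantiles were 3.52, 3.21, 3.19, 3.12 and 3.00. The intervals of short and longer exons overlapped up to a quantile of 0.7 and were apart above it. Whether this trend differs between short and longer exons was not tested. Short exons held 5.45% of coding sequence peaks at quantiles of 0.4 to 0.6 (3.82 to 7.72%), 7.17% at 0.7 to 0.8 (5.84 to 8.77%) and 12.8% above 0.9 (10.5 to 15.4%).

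**Figure D4:**
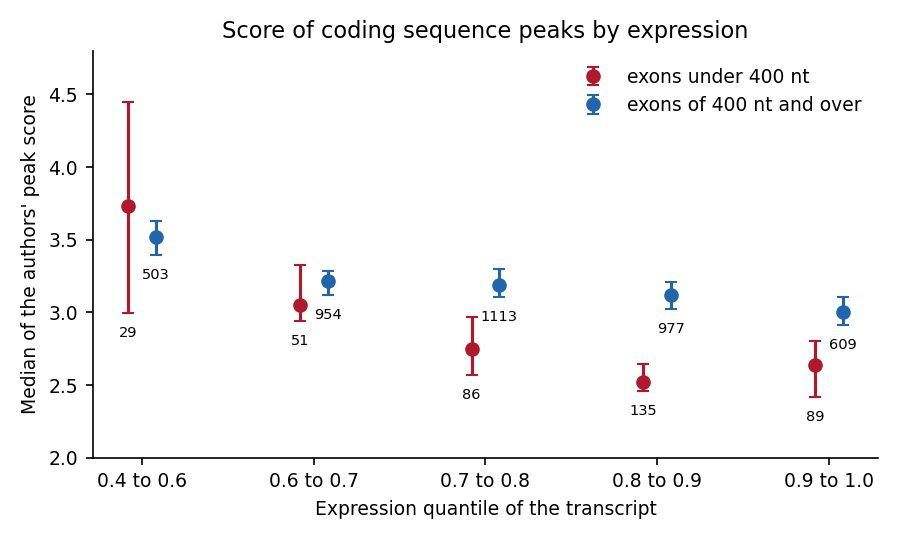
Median of the authors' peak score by expression quantile of the transcript, for coding sequence peaks in exons under 400 nt and in exons of 400 nt and over. Bars are exact 95% intervals of the median and numbers are peaks. Above a quantile of 0.7 the short exons lie lower, at 2.52 against 3.12 for quantiles of 0.8 to 0.9.

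Short-exon peaks lay early in the transcript more often than peaks in longer coding exons. Even so, 97 of the 390 (24.9%) were at positions of 2000 nt and over, beside 32.8% in longer exons. Of the 390, 73 (18.7%, 15.2 to 22.9%) were at positions 200 to under 300, just past the authors' transcript start segment, against 1.95% of coding sequence peaks in longer exons (1.57 to 2.42%). The median expression quantile at these 73 was 0.876, and the median score was 2.66 (2.52 to 2.95). By exon number they did not stand apart in this way. Exon 1 held 13.6% of the 390, beside 12.2% of peaks in exons of 400 to under 1500 nt and 12.6% in the longest exons, and exon 2 held 18.2%, beside 22.0% and 18.0%. On matched transcripts the median distance along the coding sequence, from start to stop codon, was 0.36 (0.25 to 0.44, 90 peaks) for short exons and 0.47 (0.45 to 0.50, 838 peaks) for longer ones.

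Within their exons the peaks kept some distance from splice junctions. The nearest junction was under 50 nt away for 22 of 90 (24.4%, 16.7 to 34.2%), whereas on average 44.8% of the eligible positions of the same exons were that close. In exons of 400 nt and over, 1.07% of peaks were. A preference for either end was not detectable at this number, with 40 of 79 in internal exons lying 5' of the midpoint (50.6%, 39.8 to 61.4%, exact two-sided binomial p = 1.00) against 49.9% of all eligible positions in such exons.

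A neighbour of 400 nt or over stood beside 23 of the 90 exons with a peak (25.6%) and 1469 of 10933 coding exons under 400 nt without a short-exon peak (13.4%). The odds ratio was 2.21 (interval 1.31 to 3.61, two-sided Fisher's exact p = 0.0027). The comparison was first computed in transcripts with a coding sequence peak only, and was widened to all matched transcripts with a peak after that value was seen. In the narrower set it did not pass, and the difference was 7.86 points (Fisher's exact p = 0.069). Among peaks with a score of at least 2.5, in the wider set, it was 4.31 points (Fisher's exact p = 0.35).

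RRACH was common near these peaks and near other positions of short exons alike. It was searched on the RNA strand only and with GGACU among its 12 forms, and lay within 50 nt of 77 of the 90 matched peaks (85.6%, 76.8 to 91.4%). Of all eligible coding positions in exons under 400 nt, 79.5% had it as near, and on average 81.0% of positions in the same 90 exons did, both inside that interval. Among 838 peaks in longer coding exons the share was 94.2%, beside 76.1% of positions there, and it was higher than in short exons (difference -8.60 points, odds ratio 0.37, interval 0.19 to 0.77, two-sided Fisher's exact adjusted p = 0.011 over 2 motifs). The call did not hold within 30 nt (-8.57 points, Fisher's exact adjusted p = 0.094) or within 100 nt (-0.43 points, Fisher's exact adjusted p = 0.68). It also ended among peaks with a score of at least 2.5, where RRACH stood near 90.3% of 62, and without positions under 300 nt, where it stood near 88.9% of 72.

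GGACU, the form most often found methylated, stood near fewer peaks but was also rarer in the surrounding sequence. It lay within 50 nt of 35 of the 90 peaks (38.9%, 29.5 to 49.2%), against 10.4% of all eligible coding positions in exons under 400 nt and, on average, 23.2% of positions in the same 90 exons. In longer exons 30.2% of 838 peaks had it, beside 10.6% of positions, a difference of 8.70 points that did not pass the test (odds ratio 1.47, interval 0.91 to 2.35, two-sided Fisher's exact adjusted p = 0.094). It passed within 30 nt, with 32.2% against 21.6% (Fisher's exact adjusted p = 0.033), and among positions of 300 nt and over, with 43.1% against 29.95% (adjusted p = 0.024). For 34 of the 35 peaks that GGACU was in the exon named by the table. The sequences of PPP2R5A, VASH2, DHX32, ORC1L, EPC1 and DSTYK above are of this kind.

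Where RRACH lay within 50 nt, the pentamer nearest to the listed position was GGACU for 18 of 77 peaks (23.4%), GGACA for 11, GGACC for 11 and AGACU for 9. In longer exons GGACU was nearest for 19.4% of 789. The nearest RRACH lay a median of 14 nt from the listed position (9 to 21 nt), beside 11 nt (10 to 12 nt) in longer exons. This nearest RRACH was in the same exon as the peak for 79 of 90 short-exon peaks (87.8%), beside 837 of 838 in longer exons (99.9%). In exons of 200 to under 300 nt RRACH stood near 21 of 23 peaks, in exons of 300 to under 400 nt near 42 of 48 and in exons under 200 nt near 14 of 19.

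**Figure D5:**
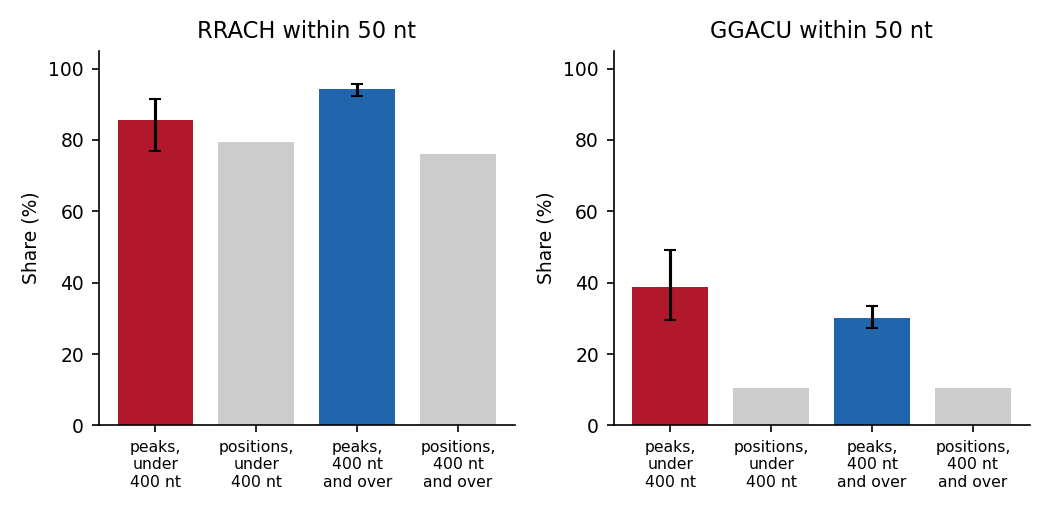
Share (percent) of coding sequence peaks with RRACH (left) or GGACU (right) within 50 nt, for 90 peaks in exons under 400 nt and 838 in exons of 400 nt and over, with 95% Wilson intervals. Grey bars are all eligible coding positions of the same exon class. GGACU stood near 38.9% of the short-exon peaks and 10.4% of positions.

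The 19 gene lists, written with earlier results of these data known, differed in how many of their coding sequence peaks lay in short exons, beside 8.58% over all genes. No list was tested, and exon lengths differ between lists. Aminoacyl-tRNA synthetases, which charge transfer RNAs, had both of their 2 there, in MARS (score 3.64, exon 1 of 263 nt) and EPRS (2.38, exon 18 of 360 nt). The proteasome had 2 of 3, in the subunits PSMD13 (3.36) and PSMC3 (2.42, in an exon of 84 nt). Splicing factors had 3 of 9, in the coactivator SRRM1 (2.26), the helicase DHX38 (2.21) and SF3B1 of the U2 particle (2.13), all scoring under the median of 2.73.

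Extracellular matrix and integrin genes had 4 of 13 (30.8%), led by the integrin subunit ITGB4 (3.75, exon 7 of 172 nt), LAMB1 (3.39) and the laminin chain LAMC1 (2.17). Nuclear pore genes had 5 of 17 (29.4%), with NUP98 at 2.64 and 2.16 and NUP155 at 2.25. Surface receptors had 6 of 28 (21.4%), with LRP6 at 5.29 and 4.03 and the receptor tyrosine phosphatase PTPRK at 3.59. Their median score of 3.41 was above that of all 390 peaks, but the 6 peaks came from only 4 genes.

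In solute carriers 4 of 51 coding sequence peaks were in short exons (7.84%), with the mitochondrial carrier family member SLC25A36 at 3.87, SLC35F2 at 3.37 and the amino acid transporter SLC38A1 at 3.03. Ubiquitin-specific proteases had 3 of 39 (7.69%), in USP43 (3.04), USP54 (2.62) and USP11 (2.33). Genes of mitosis and the cell cycle had 1 of 11, in the checkpoint kinase BUB1 (2.57), and DNA replication genes 1 of 2, in the maintenance methyltransferase DNMT1 (2.44). Chromatin modifiers had 5 of 106 (4.72%), with UTX at 5.17, the methyltransferase WHSC1L1 at 2.97 and the remodeller subunit PBRM1 at 2.89. Zinc finger (ZNF) genes had 4 of 253 (1.58%), with ZNF142 at 3.22, ZNF193 at 2.42 and ZNF609 at 2.05.

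Another 5 lists had coding sequence peaks but none in a short exon. They were the cytoskeletal motors (0 of 26, which allows a share of up to 11.5%), the m6A machinery (0 of 20, up to 15%), immediate early genes (0 of 13, up to 23.1%), chaperones (0 of 2) and cholesterol genes (0 of 1). These upper limits are 3 divided by the number of coding sequence peaks, not Wilson limits. Glycolysis and ribosomal protein genes had 0 coding sequence peaks of any exon length.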

How the data were processed

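The deposited table gives, per the file headers, 1 line per transcript with an expression quantile, a fraction from 0 to 1 assigned by the authors, and space-separated lists of each peak's position, exon number, exon length, score and segment. No header or label names the build, aligner or peak caller behind the deposited values. Lists were split to 1 line per peak. Transcripts were matched to GENCODE 29 by current or older symbol, chromosome, strand, genomic span within 10 nt and agreement of exon number and exon length at each peak, which left 1139 coding transcripts. On these, 98.9% of 928 coding sequence peaks fell in that segment when it was recomputed. Only transcript sequences and structures were used, and 0 of the transcripts matched on identical span started at the table's coordinate, so the table is in another build than GRCh38. The limit of 10 nt applied to the genomic span and not to each position, so the error of a position from matching is not known. Some coding sequence peaks of longer exons lay outside the coding sequence of the matched transcript. Eligible positions follow the authors' segment.

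Peak counts were compared with two-sided Fisher's exact tests, transcripts with exact sign tests (scipy 1.17.1, Python 3.11.15), with Benjamini-Hochberg adjustment within each family and a threshold of 0.05. Intervals are 95% (Wilson for shares, order statistics for medians, exact Poisson for densities) and cover counting error only. Tests were tried on simulated data. The peaks, gene lists and markers were chosen with earlier results of these data known. Named genes are the 10 highest scores, the 5 transcripts with the most short-exon peaks (ties by symbol), the 5 highest scores in exons under 100 nt and up to 3 peaks of each list. METTL3, LRP5, TTN, SFPQ, the genes of the printed sequences and the markers were chosen otherwise. A named gene of this rule is not reported here.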

Additional observations from a re-analysis of the deposited data

How the results depend on the processing

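Of 57 alternative settings, 42 kept direction and side of the threshold, among them all of those for the score against longer exons and within transcripts. The number of peaks was 210 for exons under 300 nt, 666 under 500 nt and 250 with a score of at least 2.5. The expression difference from exons of 400 to under 1500 nt lost its call without positions under 300 nt (4.11 points). The RRACH difference lost it within 30 nt (-8.57 points), within 100 nt (-0.43), at a score of at least 2.5 (-4.55) and without positions under 300 nt (-5.37). The GGACU difference gained one within 30 nt (10.6 points) and without positions under 300 nt (13.1). The neighbouring exon difference lost its call with neighbours of 1000 nt and over (2.65 points), at a score of at least 2.5 (4.31) and in transcripts with a coding sequence peak (7.86). The share 5' of the exon's midpoint crossed to 49.1% at a score of at least 2.5 and 46.7% in exons of 200 nt and over, with no call in either. The cause of these changes was not tested. Settings on positions of 300 nt and over and on identical span were chosen after seeing the data, and so was the wider set of transcripts of the neighbouring exon comparison, after the narrower set had been computed.

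No paired analysis was possible because the table gives no value per library, and no library was left out for the same reason. The score has no stated scale, 90 of 390 peaks were placed on sequence, and the authors' threshold, near a score of 2, decides which weak peaks are listed.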

Other observations

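LRP6 and LRP5, related coreceptors of Wnt ligands, both had a peak in exon 6, which is 397 nt long in each. The score was 4.03 in LRP6 (position 1378, expression quantile 0.679) and 2.11 in LRP5 (position 1254, expression quantile 0.963).

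In the muscle gene TTN, which encodes the giant protein titin and stood at an expression quantile of 0.413, the lowest of all 390 peaks, exons 201 (303 nt) and 303 (306 nt) had scores of 3.65 and 4.70, and the neighbouring exon 302 (585 nt) had 3.54.

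Of the short-exon peaks with GGACU within 50 nt, 33 had the nearest one inside the coding sequence. Its A fell at the second position of a codon in 21 of these 33 (63.6%). This was so for 59.8% of 251 in longer exons and for 57.6% of all 2841 coding GGACU of the matched transcripts.

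The RNA-binding protein SFPQ had its only listed peak in a short exon (exon 3 of 302 nt, score 4.66) at an expression quantile of 0.995. The median score of the 89 short-exon peaks above a quantile of 0.9 was 2.64.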
